A study of Mus musculus with 8 samples.

Results

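The genes described here are the neighbours of Bcat2 on mouse chromosome 7, compared between muscle of Bcat2 knockout and wild-type mice by their distance from the deleted gene. A gene was taken as a neighbour where its row lay on chromosome 7 within 10 Mb of Bcat2 (mm10, chr7:45570153-45589710, plus strand, ENSMUSG00000030826) and its mean FPKM over the 8 mice was at least 1. FPKM are fragment counts corrected for exon length and library size, so levels of different genes can be set side by side. Of 367 rows in the window, 152 were listed at 0 in every mouse and 104 reached the level. Of the 104, 12 were set aside by name, namely Bcat2, Atf5, Ppp1r15a, Gys1, Ldha, Myod1, Etfb, Mybpc2 and Akt1s1, and 3 ribosomal protein genes. The 92 remaining genes are the neighbours, out of 11118 genes tested in all, with 63 at lower coordinates than Bcat2 and 29 at higher coordinates. Just outside the level stood Gm2308 at a mean of 0.919 FPKM, and just inside it Zfp141 at 1.062 FPKM. Just outside the window stood Nudt19 at 10.0 Mb, and the farthest neighbour was Ankrd27 at 9.93 Mb.

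The KO group was 4 male mice of 10 to 11 weeks, homozygous for the allele Bcat2tm1.2Clyn, with a body weight of 19.5 ± 4.2 g (SD). The WT group was 4 male mice of 9 to 10 weeks, with a body weight of 24 ± 1.41 g (SD). All 8 mice were on a C57BL6 background and could choose between chow and a purified diet without branched-chain amino acids, and gastrocnemius, a calf muscle rich in fast fibres, was taken under isoflurane. The strain of the embryonic stem cells behind the allele and the number of backcrosses were not given among the labels used here, and which stretch of flanking chromosome the KO mice carry cannot be read from FPKM. The KO columns, KO5 to KO8, could not be tied to single labelled mice.

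The deleted gene was low in every mouse labelled KO: Bcat2 stood at 2.89, 5.26, 2.91 and 2.09 FPKM in KO5 to KO8, against 83.00, 42.7, 46.01 and 41.2 FPKM in WT1 to WT4, without overlap (limma adjusted p = 0.00245). FPKM summed to between 691168 and 896190 in the 8 libraries. Depth relative to WT2 ran from 0.547 to 1.21 in KO and from 0.437 in WT4 to 1.23 in WT3, and no read totals are given. KO8 stood apart in scale, with a median over all tested genes of -0.35 on the log2(FPKM + 1) scale relative to the mean of the 8 mice, against -0.07 to 0.16 in the other 7. The summed FPKM of 6 muscle fibre markers lay between 49740 and 81370 in KO and between 49760 and 58730 in WT, so the tissue label fits its defining transcripts. KO6 carried keratinocyte markers summing to 393 FPKM, against at most 2.67 FPKM in any other mouse, and fat markers were highest in WT1 at 12950 FPKM and next highest in KO6 at 7449 FPKM.

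As background, Bcat2 lies in a gene-rich stretch of mouse chromosome 7 that holds potassium channels, regulators of muscle transcription, vesicle traffic proteins, a cluster of kallikrein proteases and several small nucleolar RNAs hosted in ribosomal protein genes. A targeted allele is made in embryonic stem cells, and backcrossing exchanges linked chromosome slowly, so genes near a deleted locus can keep the sequence of the stem cell strain. Removal of a gene can also alter transcripts of its immediate neighbours, and a comparison by distance shows where in the window expression differs between the genotypes.

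Of the 92 neighbours, 85 are protein coding genes among the 90 whose identifier was found in the GENCODE annotation, and 43 lie on the plus strand. Their mean levels ran from 1.062 FPKM for Zfp141, a zinc finger gene, to 318.5 FPKM for Pdcd5, a gene linked to programmed cell death, with a median of 6.34 FPKM. Exons of 34 of them overlap those of another annotated gene, 32 on the opposite strand. No source used here gives the strand setting of the quantification, so values of overlapping genes are uncertain. Among genes named here these are Klk8, Myh14, Fuz, Ap2a1, Bcl2l12, Irf3, Nosip, Snord35b, Aldh16a1, Pih1d1, Cd37, Ftl1, Bax, Dhdh, Rasip1, Dbp, Sphk2, Cyth2, Grwd1, Spty2d1 and Gas2.

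No neighbour passed the threshold of a limma adjusted p of 0.05 over all 11118 genes, a rate of 0.027% for all tested genes, and the adjusted p of the 92 ran from 0.48 to 0.998. With no adjustment, 3 neighbours with higher and 10 with lower KO values had a limma p under 0.05, 14.1% of the 92, against 10.3% of all tested genes (2.99% higher and 7.33% lower). Of the 3 higher, Snord35a and Aldh16a1 were each listed at 0 in 3 WT mice. Aldh16a1 is also a neighbour only through its KO values. With values of 0 as missing, 1 was higher and 10 lower at that p among 86 neighbours, against 347 and 819 of 10573 tested genes. Without overlap, that is with every KO mouse above or below every WT mouse, stood 4 neighbours higher and 9 lower in KO, again 14.1%, against 6.75% of all tested genes (2.07% higher and 4.68% lower). Single chromosomes ranged from 4.58% to 9.36% in the share of tested genes without overlap and from 7.77% to 12.6% in the share under an unadjusted p of 0.05. They held 280 to 994 tested genes each, and shares of a smaller set such as the 92 can vary more. The 733 tested genes of chromosome 7 beyond 10 Mb had 6% without overlap and 11.6% under an unadjusted p of 0.05. Under median-ratio scaling, which sets the median of all genes at -0.002 in place of -0.12, the splits at that unadjusted p became 10 higher and 8 lower, and those without overlap 8 higher and 4 lower. All tested genes moved likewise under that scaling, to 750 higher and 574 lower at that p and 404 higher and 317 lower without overlap. Under quantile scaling the neighbours gave 8 higher and 11 lower at that p and 7 higher and 6 lower without overlap, and all tested genes gave 612 and 651, and 348 and 349.

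The 4 neighbours without overlap and higher in KO were Pdcd5, Klk8, Prmt1 and Spty2d1, the last a neighbour only through its KO values. The 9 that were lower were Kcna7, Kcnj11, Kcnc1, Nomo1, Dhdh, Ap2a1, Ptov1, Ano5 and Uri1, and 4 of these 9, Ano5, Ap2a1, Dhdh and Nomo1, also stood apart under median-ratio scaling. The median log2 difference of the 92, KO minus WT, was -0.09, against -0.12 over all tested genes, -0.11 on chromosome 7 beyond 10 Mb and -0.12 on the other chromosomes. In 55 of the 92 neighbours (59.8%) the difference was below 0, against 63.6% of all tested genes. In the authors' deposited table, 20 of the 92 carried the flag for a p under 0.05, 6 higher and 14 lower in KO. That is 21.7%, against 20.2% of all tested genes (7.71% higher and 12.5% lower) in the authors' deposited table.

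By distance, 7 of the 9 neighbours that were lower without overlap lay within 1 Mb of Bcat2, where 52 of the 92 neighbours lie. Of the 52 neighbours up to 1 Mb away, 7 were lower and 1 higher in KO without overlap, 15.4% in all, against 6.75% of all tested genes (4.68% lower), and their median log2 difference was -0.22, against -0.12 over all tested genes. The 7 lower became 3 under median-ratio and 4 under quantile scaling. Of the 21 neighbours at 1 to 2.5 Mb, none was lower and 2 were higher without overlap, with a median of 0.06. None of the 9 at 2.5 to 5 Mb stood apart, with a median of -0.05. Among the 10 at 5 to 10 Mb, 2 were lower and 1 higher without overlap, 30% in all, with a median of -0.03. This share exceeded the 15.4% found up to 1 Mb, but rests on 10 genes. Across the 92 neighbours, the size of the log2 difference and the distance had a Spearman rho of -0.28, a description over genes that share the same 8 libraries.

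**Figure D1:**
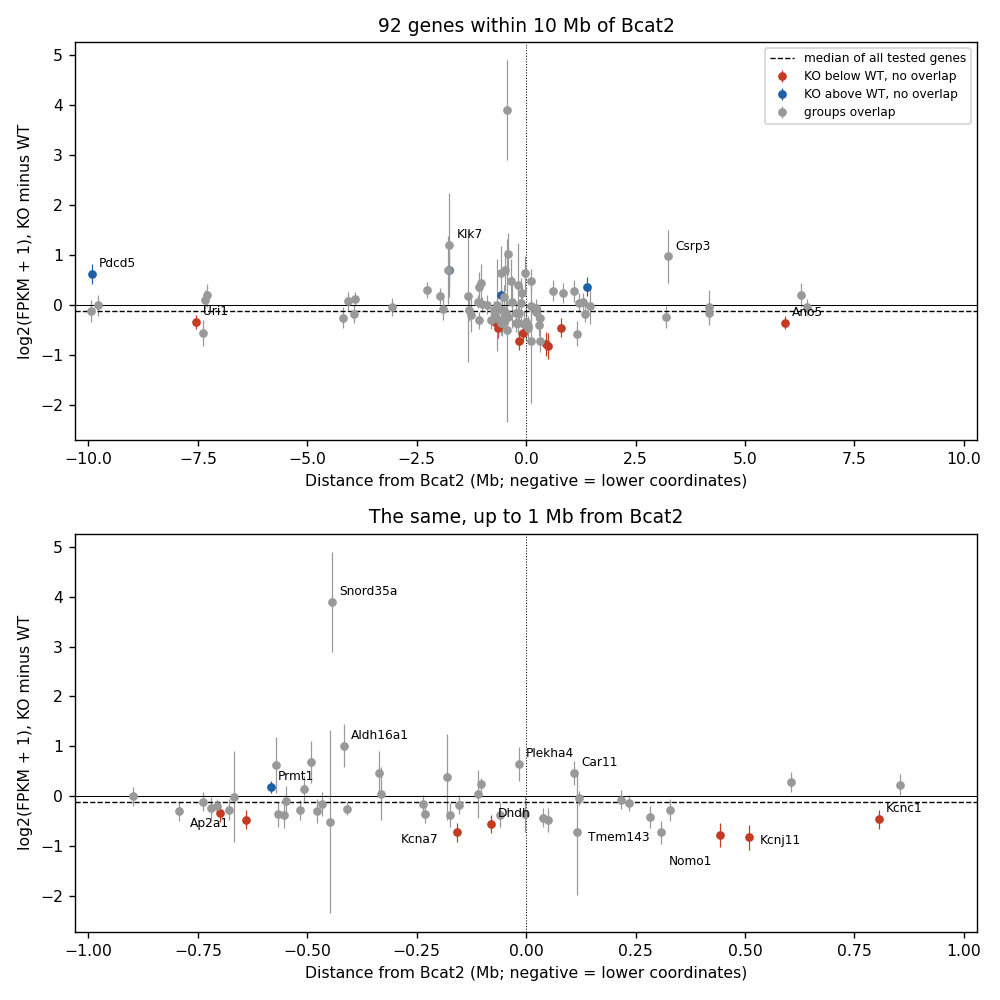
Log2 difference in log2(FPKM + 1), KO minus WT, with its standard error (bars), against distance from Bcat2 in Mb, for the 92 neighbours in the upper panel and for the 52 up to 1 Mb away in the lower panel. Red points, 9 in all, are genes with every KO mouse below every WT mouse, and 7 of these lie within 1 Mb of Bcat2.

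The medians on the 2 sides of Bcat2 were unlike, a difference that was not tested. The 15 neighbours up to 1 Mb at higher coordinates had a median log2 difference of -0.41, with 12 of 15 below 0. Without overlap stood 3 (Nomo1, Kcnj11 and Kcnc1), all lower. Of these 3, Nomo1 alone also stood apart under median-ratio and quantile scaling. The 37 at lower coordinates had a median of -0.17, with 24 below 0, and 4 lower and 1 higher without overlap. Over all tested genes 63.6% had a difference below 0, with a median of -0.12, and 4.68% were lower and 2.07% higher without overlap. In single mice, the median of the 15 genes less that of all tested genes was -0.14, -0.09, 0.02 and -0.08 in KO5 to KO8, against -0.03, 0.10, 0.29 and 0.07 in WT1 to WT4. KO7 thus lay above WT1, and WT3 was the highest mouse by a wide margin. Relative to all tested genes the median difference of the 15 was -0.29, and without WT3 it was -0.057, so the size of this median depended on 1 WT library. For the 37 on the other side the relative difference was -0.05, and in single mice WT3 was again highest at 0.25. The 40 neighbours beyond 1 Mb ran the other way, at 0.08, 0.06, -0.01 and 0.11 in KO5 to KO8, against -0.05, -0.06, -0.25 and -0.03 in WT1 to WT4, with WT3 the lowest.

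**Figure D2:**
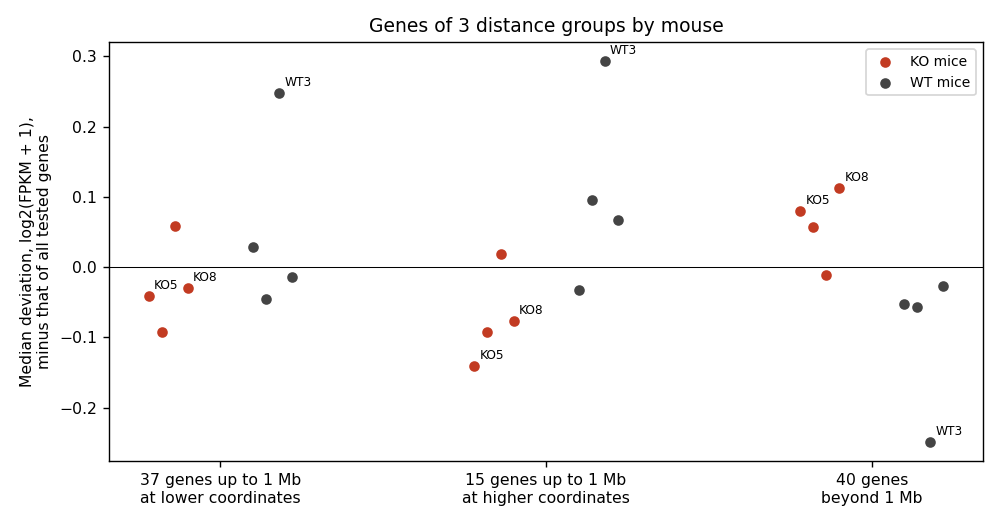
Median deviation of the neighbours from the mean of the 8 mice, in log2(FPKM + 1), less the same median over all tested genes, for each mouse in 3 distance groups, with KO mice left of WT mice. WT3 is the highest mouse for both groups up to 1 Mb (0.25 and 0.29) and the lowest for the 40 genes beyond 1 Mb (-0.25).

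WT3 and KO8 recur at the ends of the ranges. WT3 was the highest WT mouse in 43 of the 92 neighbours (46.7%), against 42.9% of all tested genes, and in 7 of the 9 that were lower in KO without overlap. KO8 was the lowest KO mouse in 61 of the 92 (66.3%), against 63.6% of all tested genes, and in 6 of those 9. The 9 were picked for KO values below WT values, so the shares over all tested genes are no like background for them. WT3 had the highest estimated relative depth, 1.23 against 1.21 in KO7, and the part of depth in these differences was not tested.

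The genes next to Bcat2 itself had no difference that passed. On the lower side the nearest was Hsd17b14, an enzyme of the steroid dehydrogenase family 2.40 kb away, at 1.56 ± 0.919 FPKM in KO and 2.25 ± 1.07 FPKM in WT (SD, n = 4 each, log2 difference -0.35, SE 0.36). That difference was -0.095 without KO8, -0.18 without WT3 and -0.61 without WT2. The next 7 on that side were Plekha4, Nucb1, Dhdh, Bax, Ftl1, Ntf5 and Kcna7, with log2 differences from -0.72 for Kcna7 to 0.64 for Plekha4. On the higher side the nearest was Rasip1, a Ras-interacting protein of blood vessel endothelium 37.8 kb away, which stood at 2.19, 2.48, 2.73 and 1.90 FPKM in KO5 to KO8, against 4.78, 2.45, 4.05 and 2.97 FPKM in WT1 to WT4 (log2 difference -0.43, SE 0.19). KO mice lay at the low end of Rasip1, with overlap between the groups. The next 7 on that side were Mamstr, Car11, Dbp, Sphk2, Cyth2, Grwd1 and Kdelr1, and none of these 16 nearest genes had a limma adjusted p below 0.48. Sphk2, a kinase that makes sphingosine-1-phosphate, and Cyth2, an exchange factor for ARF GTPases, had close means. Sphk2 averaged 9.03 ± 1.16 FPKM in KO and 9.24 ± 1.25 FPKM in WT (SD, n = 4 each), with a log2 difference of -0.03 (95% interval -0.34 to 0.29) that was 0.11 under median-ratio scaling. Cyth2 averaged 6.37 ± 1.51 FPKM in KO and 6.68 ± 1.17 FPKM in WT (SD, n = 4 each), with a log2 difference of -0.07 (95% interval -0.50 to 0.36) that was 0.056 under median-ratio scaling.

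Kcna7, Kcnj11 and Kcnc1, which are 3 of the 9 neighbours with lower KO values and no overlap, encode potassium channels, a grouping made after their values were seen. Potassium channels carry potassium across the fibre membrane and shape its excitability. The promoter windows of Kcna7 and Kcnc1, and of Ano5, another membrane protein gene among the 9, are shown because these are the regulatory sequences next to the starts of genes whose groups stood apart, chosen after their values were seen. They are RefSeq sequences of GRCm38.p6, plus strand, running from 250 bases before the start to 50 bases after it. Capitals mark the letters CANNTG, the E-box core that MyoD-type muscle transcription factors bind, which reads CANNTG on both strands.
Kcna7, chr7:45405710-45406009: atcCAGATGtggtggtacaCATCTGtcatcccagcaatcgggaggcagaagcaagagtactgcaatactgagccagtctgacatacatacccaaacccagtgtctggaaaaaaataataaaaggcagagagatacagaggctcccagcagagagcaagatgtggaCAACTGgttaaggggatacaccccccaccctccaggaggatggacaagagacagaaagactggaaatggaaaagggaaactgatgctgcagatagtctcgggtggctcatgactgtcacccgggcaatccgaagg
Kcnc1, chr7:46396218-46396517: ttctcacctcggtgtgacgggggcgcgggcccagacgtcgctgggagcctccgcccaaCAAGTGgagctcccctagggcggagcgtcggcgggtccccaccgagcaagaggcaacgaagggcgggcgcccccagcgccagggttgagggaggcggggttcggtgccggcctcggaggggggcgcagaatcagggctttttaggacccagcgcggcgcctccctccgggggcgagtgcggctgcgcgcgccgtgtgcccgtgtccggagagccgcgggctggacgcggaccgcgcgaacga
Ano5, chr7:51510779-51511078: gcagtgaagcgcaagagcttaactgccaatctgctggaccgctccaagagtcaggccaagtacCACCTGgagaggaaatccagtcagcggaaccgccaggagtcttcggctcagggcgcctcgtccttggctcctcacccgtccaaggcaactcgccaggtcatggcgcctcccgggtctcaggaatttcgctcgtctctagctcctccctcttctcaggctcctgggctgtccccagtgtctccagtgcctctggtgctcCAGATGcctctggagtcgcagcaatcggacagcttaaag
The window of Kcna7 holds 3 such cores, that of Kcnc1 holds 1 and that of Ano5 holds 2. Of the 32851 promoters of 300 bases in the same table, 72.3% hold at least 1, with a median of 1, so a match here is a description of letters and not a binding site. A promoter was found in that table for 74 of the 92 neighbours and for 6 of the 9.

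Kcna7, a voltage-gated potassium channel of the Kv1 family 159 kb from Bcat2 (chr7:45405960-45411382, plus strand), stood at 27.3, 24.5, 28.7 and 26.3 FPKM in KO5 to KO8, against 32.8, 44.7, 61.6 and 43.6 FPKM in WT1 to WT4. The KO mice were tightly grouped and all below the lowest WT mouse, WT1, with WT3 the highest. The log2 difference was -0.72 (SE 0.19, 95% interval -1.15 to -0.29, limma adjusted p = 0.48), and the exact permutation p of 0.0286 is the smallest that 4 against 4 mice allow. Kcnj11, the pore subunit Kir6.2 of the ATP-sensitive potassium channel at 509 kb on the other side (chr7:46098725-46099897, minus strand), stood at 17.2, 17.8, 22.8 and 18.3 FPKM in KO5 to KO8, against 22.9, 37.01, 55.1 and 29.2 FPKM in WT1 to WT4. KO7 lay just below the lowest WT mouse, so the gap between the groups was narrow while its KO mean was lower (log2 difference -0.83, SE 0.25, limma adjusted p = 0.48). Kcnc1, a Kv3 channel at 807 kb, stood at 5.68, 5.71, 6.60 and 3.84 FPKM in KO5 to KO8, against 6.64, 7.93, 10.3 and 6.72 FPKM in WT1 to WT4. The groups were again separated only narrowly, between KO7 and WT1, with a log2 difference of -0.46 (SE 0.19). For Kcna7, Kcnj11 and Kcnc1 the groups overlapped under median-ratio and quantile scaling.

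Ano5, a membrane protein of the anoctamin family whose loss causes a limb-girdle muscular dystrophy in people, lies 5.92 Mb from Bcat2 and stood at 18.8, 18.3, 18.3 and 14.4 FPKM in KO5 to KO8, against 23.05, 22.2, 23.6 and 21.4 FPKM in WT1 to WT4. Its groups were each tight apart from KO8, the lowest mouse, and did not overlap (log2 difference -0.36, SE 0.13, exact permutation p = 0.0286, limma adjusted p = 0.48). Hrc, a histidine-rich calcium-binding protein of the sarcoplasmic reticulum, stood at 143, 130.00, 153 and 106 FPKM in KO5 to KO8, against 159.95, 149.58, 225 and 152 FPKM in WT1 to WT4. KO7 overlapped the WT range, and WT3 was the highest of the 8 mice (log2 difference -0.36, SE 0.18). Csrp3, the muscle LIM protein of the Z-disc, stood at 277, 71.1, 50.5 and 65.8 FPKM in KO5 to KO8, against 60.4, 62.9, 42.8 and 26.6 FPKM in WT1 to WT4. A single KO mouse, KO5, set the KO mean, and the log2 difference of 0.97 had an SE of 0.52 (exact permutation p = 0.143). Of the 8 neighbours in the list of muscle and membrane genes (Myh14, Trpm4, Hrc, Kcna7, Kcnc1, Csrp3, Ano5 and Gas2), 3 were lower without overlap, 0 were higher and 0 passed the adjusted limma threshold, with 3 lower at an unadjusted p under 0.05. Over all tested genes 4.68% were lower without overlap and 7.33% lower at that p. Of the 3, Ano5 alone stood apart under median-ratio and quantile scaling. The list's median log2 difference was -0.26, against -0.12 over all tested genes. The list held 13 genes in all, and Kcnj11 was in none of the lists. In the list of muscle fibre markers, 2 of 6 had lower values at an unadjusted limma p under 0.05, against 7.33% of all tested genes. These were Myh4 and Ttn, of which the Myh4 value of WT2 carries an error mark in the deposited table. Myh1, another of the 6, stood at 108, 84.7, 0 and 60.9 FPKM in KO5 to KO8, against 134, 110.2, 245 and 149.9 FPKM in WT1 to WT4, without overlap. Myh1 was not among the 2 lower at that p, and its 0 in KO7 can be a failed estimate. The other fibre markers did not all fall. Ckm had a log2 difference of -0.01, Tnnt3 of -0.16 and Mylpf of 0.35, each with overlapping groups. Mylpf was highest in KO5 at 49688 FPKM, against 26911 FPKM in KO8, the next mouse. Whether the fibre markers move with the neighbours through fibre content was not tested. Fewer fibres of a type and less RNA per fibre cannot be told apart in whole muscle.

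**Figure D3:**
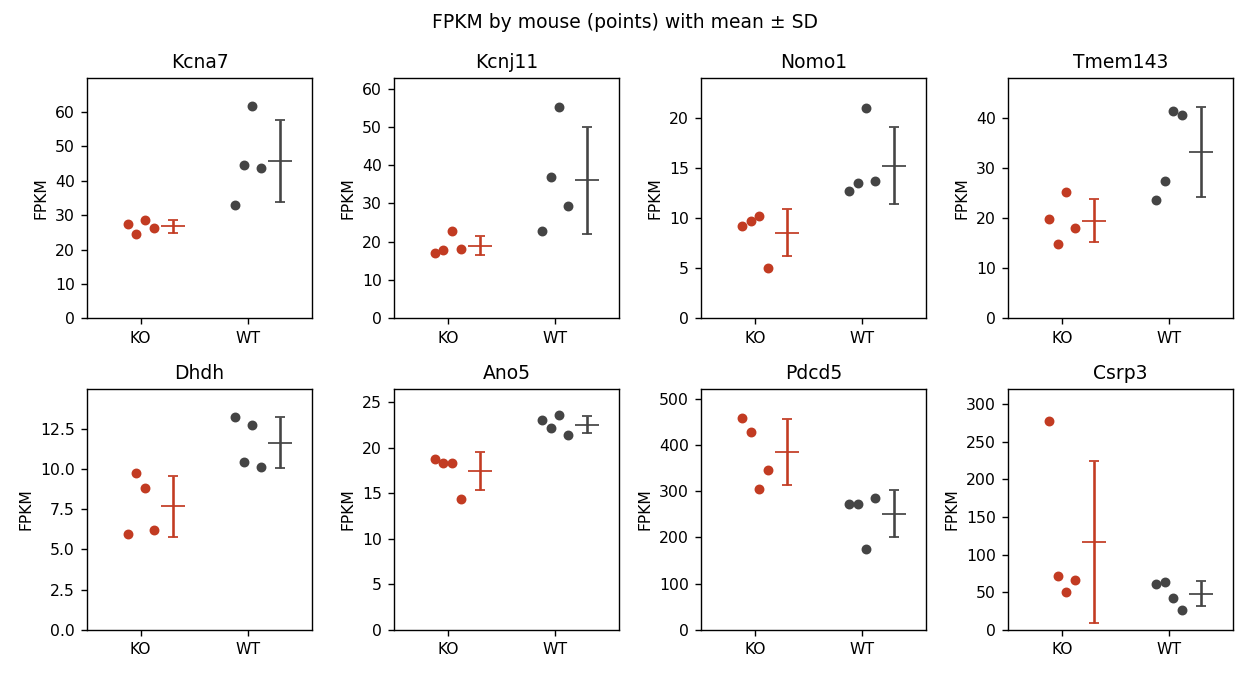
FPKM of 8 neighbours in each mouse (points; KO left, WT right; order KO5 to KO8 and WT1 to WT4), with mean ± SD beside them. Kcna7, Kcnj11, Nomo1, Dhdh and Ano5 have every KO mouse below every WT mouse, Pdcd5 has every KO mouse above, Tmem143 overlaps, and 1 KO mouse at 277 FPKM sets the Csrp3 mean.

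Genes of vesicle traffic and the secretory pathway were represented by 15 neighbours. Nomo1, a membrane protein of the endoplasmic reticulum 444 kb from Bcat2 (chr7:46033698-46084212), stood at 9.20, 9.74, 10.2 and 5.04 FPKM in KO5 to KO8, against 12.7, 13.5, 20.98 and 13.7 FPKM in WT1 to WT4. KO8 was the lowest and WT3 the highest, and the remaining mice still left a gap between the groups (log2 difference -0.78, SE 0.24, limma adjusted p = 0.48, exact permutation p = 0.0286). Ap2a1, a subunit of the clathrin adaptor AP-2, was chosen after its values were seen and stood at 15.6, 15.02, 15.2 and 10.5 FPKM in KO5 to KO8, against 18.8, 17.8, 27.4 and 15.98 FPKM in WT1 to WT4, with no overlap and a log2 difference of -0.47. Ap2a1 shares exonic sequence with Fuz on the opposite strand. Hps5, part of a complex that builds lysosome-related organelles and also chosen after its values were seen, averaged 3.17 ± 1.32 FPKM in KO and 5.17 ± 1.46 FPKM in WT (SD, n = 4 each) with overlapping groups. Kdelr1, the receptor that returns proteins to the endoplasmic reticulum, averaged 27.1 ± 7.77 FPKM in KO and 35.6 ± 5.08 FPKM in WT, and Nucb1, a calcium-binding protein of the Golgi, averaged 11.5 ± 3.53 FPKM in KO and 14.9 ± 2.98 FPKM in WT (SD, n = 4 each). Of the 15, 3 were lower at an unadjusted p under 0.05, 2 were lower without overlap, 0 were higher by either count, and the median was -0.24. Over all tested genes 7.33% were lower at that p, 4.68% were lower without overlap, and the median was -0.12.

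Metabolic and mitochondrial neighbours gave log2 differences on both sides of 0. Dhdh, dimeric dihydrodiol dehydrogenase, lies 81.3 kb from Bcat2 and stood at 5.99, 9.75, 8.82 and 6.18 FPKM in KO5 to KO8, against 13.2, 10.4, 12.7 and 10.1 FPKM in WT1 to WT4. KO6 came close to WT4 without reaching it (log2 difference -0.56, SE 0.18, exact permutation p = 0.0286, limma adjusted p = 0.48), and Dhdh shares exonic sequence with Tulp2, so its value is uncertain. Tmem143, a transmembrane protein gene 307 kb away, stood at 19.8, 14.9, 25.2 and 17.98 FPKM in KO5 to KO8, against 23.7, 27.3, 41.3 and 40.5 FPKM in WT1 to WT4. KO7 overlapped WT1, while WT3 and WT4 were well above all KO mice (log2 difference -0.72, SE 0.23). Ftl1, the ferritin light chain that stores iron, stood at 107, 172, 83.6 and 65.9 FPKM in KO5 to KO8, against 263, 62.9, 83.5 and 64.7 FPKM in WT1 to WT4. WT1 was the highest mouse and KO6 the next, the 2 libraries with the highest fat marker sums, and the part of fat tissue in Ftl1 was not tested. Its log2 difference of 0.04 was -0.21 without KO6 and 0.52 without WT1. Car11, a carbonic anhydrase-related protein without catalytic activity, averaged 7.37 ± 1.78 FPKM in KO and 5.13 ± 1.80 FPKM in WT (SD, n = 4 each). Over the 8 neighbours of this list, an unadjusted p under 0.05 was found for 1 with higher and 2 with lower KO values. The higher one was Aldh16a1, which averaged 0.600 FPKM in WT and was listed at 0 in 3 WT mice. It is a neighbour only through its KO values, so it is no support for a rise. Without overlap 1 was lower, and the median was 0.01. Over all tested genes 2.99% were higher and 7.33% lower at that p, 4.68% were lower without overlap, and the median was -0.12.

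Regulators of transcription and chromatin gave values on both sides. Prmt1, the main arginine methyltransferase of histones and RNA-binding proteins, stood at 91.3, 80.9, 84.02 and 80.6 FPKM in KO5 to KO8, against 75.3, 80.5, 65.2 and 73.9 FPKM in WT1 to WT4. The KO mice were all above the WT mice by a small step (log2 difference 0.19, SE 0.12, exact permutation p = 0.0286, limma adjusted p = 0.528). Spty2d1, a histone chaperone, averaged 1.54 ± 0.390 FPKM in KO and 0.971 ± 0.183 FPKM in WT (SD, n = 4 each), also without overlap. Its WT mean is below the level of 1 FPKM, so Spty2d1 is a neighbour only through its KO values. Uri1, a prefoldin-like protein 7.55 Mb away, stood at 6.30, 5.95, 6.12 and 4.87 FPKM in KO5 to KO8, against 6.43, 8.97, 8.39 and 6.98 FPKM in WT1 to WT4. KO5 lay just below WT1, the lowest WT mouse, so the separation was small (log2 difference -0.35, SE 0.14). Ptov1, a relative of the Mediator subunit gene Med25, was chosen after its values were seen and averaged 57.2 ± 7.13 FPKM in KO and 73.6 ± 15.7 FPKM in WT (SD, n = 4 each) without overlap. Mamstr, a coactivator of MEF2 in muscle 50.3 kb from Bcat2, stood at 5.03, 5.37, 9.14 and 4.32 FPKM in KO5 to KO8, against 8.94, 7.12, 11.4 and 6.61 FPKM in WT1 to WT4. The groups of Mamstr overlapped (log2 difference -0.47, SE 0.24). Of the 13 neighbours in this list, 2 were higher and 2 lower without overlap, 1 was lower at an unadjusted p under 0.05, and the median was -0.27. Over all tested genes 2.07% were higher and 4.68% lower without overlap, 7.33% were lower at that p, and the median was -0.12. Uri1 and Ptov1, the 2 lower ones without overlap, overlapped under median-ratio scaling, and Uri1 also under quantile scaling.

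Neighbours in RNA processing and ribosome assembly gave no separated gene. All 9 had overlapping groups, 0 had an unadjusted limma p under 0.05 and 0 passed after adjustment, with a median of -0.14. Over all tested genes 6.75% had groups without overlap and 10.3% had such a p, with a median of -0.12. Nosip, a nuclear ubiquitin ligase and the most abundant of the 9, stood at 63.8, 66.3, 51.04 and 83.9 FPKM in KO5 to KO8, against 25.9, 78.96, 20.4 and 61.1 FPKM in WT1 to WT4. KO8 was the highest mouse, WT2 the next, and WT1 and WT3 lay below all KO mice. Grwd1, a WD-repeat protein of ribosome assembly, averaged 4.50 ± 0.745 FPKM in KO and 5.06 ± 0.966 FPKM in WT (SD, n = 4 each).

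Genes of cell death, the cell cycle and DNA repair were the list with the highest median, 0.34 over 6 neighbours. Pdcd5, at 9.92 Mb near the edge of the window, stood at 459.92, 429, 305 and 347 FPKM in KO5 to KO8, against 274, 273, 176 and 285 FPKM in WT1 to WT4. All KO mice were above all WT mice, WT3 was the lowest mouse, and the log2 difference was 0.62 (SE 0.20, 95% interval 0.15 to 1.08, limma adjusted p = 0.48, exact permutation p = 0.0286). Bax, the pore-forming killer of the BCL2 family, averaged 19.7 ± 2.24 FPKM in KO and 16.5 ± 1.41 FPKM in WT (SD, n = 4 each, log2 difference 0.24, SE 0.13), with overlap. Pold1, Bcl2l12 and Emp3 were also in the list, and Pdcd5 alone of the 6 stood apart or had an unadjusted limma p under 0.05. Over all tested genes 2.07% were higher without overlap, 2.99% were higher at that p, and the median was -0.12.

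In the list of signalling and vessel genes, 10 neighbours had a median of -0.13, and 0 stood apart, had an unadjusted limma p under 0.05 or passed after adjustment. Over all tested genes 6.75% stood apart and 10.3% had such a p. Rasip1 belongs to this list, and its lower KO mean stood beside endothelial markers that summed to 19.5 to 40.1 FPKM in KO and 34.5 to 57.2 FPKM in WT. Of the 4 endothelial markers, Cdh5 and Kdr had lower KO values at an unadjusted p under 0.05, against 7.33% of all tested genes. The part of vessel content in Rasip1 was not tested. Fcgrt, the neonatal Fc receptor that recycles albumin and IgG, averaged 29.6 ± 6.15 FPKM in KO and 34.05 ± 11.8 FPKM in WT (SD, n = 4 each) with overlap. Ntf5, a neurotrophin, averaged 2.59 ± 0.745 FPKM in KO and 3.02 ± 0.643 FPKM in WT (SD, n = 4 each). Plekha4, a protein with a lipid-binding domain 15.9 kb from Bcat2, stood at 6.61, 1.84, 2.33 and 1.51 FPKM in KO5 to KO8, against 1.14, 1.19, 1.88 and 1.24 FPKM in WT1 to WT4, with KO5 the highest of the 8 mice and the groups overlapping.

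The kallikreins, secreted serine proteases known from skin, followed a single mouse. Klk7 and Klk10 are named after their values were seen. Klk7 stood at 0, 29.4, 0.0502 and 0.114 FPKM in KO5 to KO8, against 0.0284, 0, 0.0250 and 0.206 FPKM in WT1 to WT4, and Klk10 at 0.243, 8.61, 0.263 and 0 FPKM in KO5 to KO8, against 0.217, 0.136, 0.318 and 0.202 FPKM in WT1 to WT4. Klk8 stood at 1.87, 5.89, 1.26 and 1.55 FPKM in KO5 to KO8, against 1.18, 0.846, 1.07 and 1.01 FPKM in WT1 to WT4, so its KO mice were all above its WT mice, but by little outside KO6. Klk7 and Klk10 reached a mean of 1 FPKM only through KO6, so that KO6 is their highest mouse follows from how the neighbours were chosen. KO6 was also the highest of the 8 mice for Klk8 and for all keratinocyte markers, with Krt14 at 108 FPKM and Krt5 at 86.6 FPKM. In the other 3 KO mice and in the 4 WT mice the 5 keratinocyte markers summed to between 1.14 and 2.67 FPKM. The part of skin RNA in the kallikrein values was not tested. Cd37, a tetraspanin of lymphocytes chosen after its values were seen, stood at 1.22, 7.59, 0.972 and 0.378 FPKM in KO5 to KO8, against 2.43, 1.14, 1.97 and 1.05 FPKM in WT1 to WT4, again highest in KO6, where 4 lymphocyte markers summed to 28.4 FPKM, against at most 3.18 FPKM in any other mouse. With KO6 and WT1 left out together, the number of neighbours without overlap and higher in KO was 7 in place of 4. Over all tested genes it was 683 in place of 230. Leaving out WT1 alone gave 617 over all tested genes, and leaving out KO6 alone gave 280. Groups of 3 mice separate more easily, and the part of this in the rise was not tested.

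**Figure D4:**
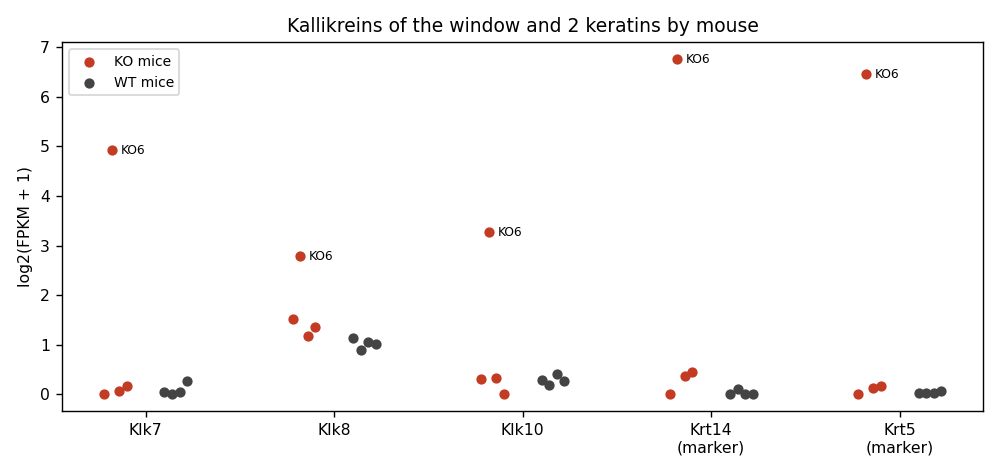
Log2(FPKM + 1) of the kallikreins Klk7, Klk8 and Klk10 and of the keratin markers Krt14 and Krt5 in each mouse, with KO mice left of WT mice. KO6 is the highest mouse for all 5 genes, and the other 7 mice lie close together for Klk7, Klk10 and both keratins.

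There were 10 neighbours listed at 0 in at least 1 mouse, which in this table can be a failed estimate. These were Klk7, Klk10, Snord88c, Fuz, Bcl2l12, Snord35a, Snord35b, Aldh16a1, Gm22478 and Dbp. Dbp, a clock output transcription factor 115 kb from Bcat2, stood at 0, 0, 0 and 18.3 FPKM in KO5 to KO8, against 0, 0, 12.7 and 9.51 FPKM in WT1 to WT4. The mice listed at 0 were in both groups, and Dbp shares exonic sequence with Sphk2 on the opposite strand. Of the 12 clock genes tested, Bhlhe41 alone had an unadjusted limma p under 0.05, with lower KO values, and 0 passed after adjustment. Over all tested genes 10.3% had such a p, with 7.33% lower in KO. Aldh16a1, an aldehyde dehydrogenase family gene that overlaps Pih1d1, stood at 1.89, 1.87, 2.32 and 1.07 FPKM in KO5 to KO8, against 0, 0, 2.40 and 0 FPKM in WT1 to WT4, with 3 of 4 WT mice listed at 0 and WT3 the highest of all. Aldh16a1 averaged 0.600 FPKM in WT, so it is a neighbour only through its KO values. It is among the 3 neighbours higher in KO at an unadjusted limma p under 0.05. Fuz, which overlaps Ap2a1, and Bcl2l12, which overlaps Irf3, likewise share sequence with a gene of the opposite strand. The 23 neighbours in no list, with the kallikreins, the small nucleolar RNAs and Kcnj11 among them, had 1 higher and 1 lower without overlap and a median of 0.15. Over all tested genes 2.07% were higher and 4.68% lower without overlap, with a median of -0.12.

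Snord35a, a small nucleolar RNA that lies within Rpl13a 444 kb from Bcat2, had the lowest unadjusted p among the neighbours higher in KO. It stood at 47.1, 34.9, 20.8 and 32.1 FPKM in KO5 to KO8, against 24.2, 0, 0 and 0 FPKM in WT1 to WT4. The only WT mouse above 0, WT1, lay within the KO range, so the groups overlapped (log2 difference 3.90, SE 1.00, exact permutation p = 0.0571, limma adjusted p = 0.48). Without WT1 the limma adjusted p was 0.000521 (log2 difference 5.06), a pass that rests on 3 WT values listed at 0, which have no spread and may be failed estimates. With all 8 mice the log2 difference was 4.63 at a pseudocount of 0.5 and 6.36 at 0.1, so its size is set by the pseudocount. Its host Rpl13a, set aside by name, stood at 4604, 5816, 3599 and 4161 FPKM in KO5 to KO8, against 2864, 3711, 1295 and 2697 FPKM in WT1 to WT4, with KO7 inside the WT range. Such short RNAs are in general recovered poorly by poly(A)-selected libraries. Snord88c, Snord35b and Gm22478 were also listed at 0 in at least 1 mouse.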

How the data were processed

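Gastrocnemius RNA of 4 KO and 4 WT mice was sequenced for 50 cycles from one end with TruSeq RNA v2 libraries, 8 per lane, per the labels' protocols. The authors aligned reads to mm10 with TopHat 2.0.9 and deposited FPKM from Cufflinks, version 2.0.2 per the labels' protocols and 2.2.1 per the submitters' processing notes. No source used here gives the annotation or the strand setting. The deposited table also holds the authors' 0 or 1 flags for their own p-value, with no test named. FPKM carry no read totals, so no counting interval is printed. Depth relative to WT2 came from the mode of FPKM ratios of low genes.

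The highest row per symbol was taken, the 11118 genes whose FPKM averaged 1 or more were tested, and limma-trend on log2(FPKM + 1) with genotype as the only term gave 2-sided p-values, Benjamini-Hochberg adjusted over all of them, with a threshold of 0.05. Differences on this scale understate the change of genes with low FPKM. Single values were set against an exact permutation test over the 70 labelled splits of 4 against 4 mice, whose smallest 2-sided p is 0.0286. The mice are separate animals per the labels, and KO column numbers match no labelled KO mouse. Positions are mm10, counted from 1. Overlaps came from the GENCODE annotation of that build and promoters from RefSeq (GRCm38.p6).

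The neighbours, the gene lists by role and the tests were chosen with earlier results of these data known. Named genes were the 8 nearest on each side of Bcat2, the 8 with the smallest unadjusted p in each direction and the most abundant of each role list, and others were chosen after their values were seen. Some genes of the window are not reported here. The alternatives tried were pseudocounts of 0.5 and 0.1, a mean FPKM of at least 5 or no filter, median-ratio or quantile scaling, values of 0 as missing, robust variance, WT1 and KO6 left out, windows of 5 and 20 Mb, and each mouse left out. The fit was checked on simulated data with known changes. R 4.3.3 with limma 3.58.1, Python 3.11.15 and matplotlib were used.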

Additional observations from a re-analysis of the deposited data

Results flagged for a closer look

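Among the 64 groups of 4 mice looked at (the named neighbours, each genotype apart), 14 had a mouse whose gap to the nearest other was large against the range of its group by Dixon's criterion. Chance gives about 1 in 20 for independent normal values. These genes share 8 libraries and some were picked by their p, so that rate is no like background for the 14. For Dbp, Snord35a and Aldh16a1 the other mice of the group were listed at 0, which fixes the ratio of gap to range at 1. In KO mice, KO5 was far above the next mouse for Plekha4 at 6.61 against 2.33 FPKM and for Csrp3 at 277 against 71.1 FPKM. KO6 stood above for Klk8 at 5.89 against 1.87 FPKM, and KO7 for Car11 at 10.01 against 6.83 FPKM. KO8 stood above for Dbp at 18.3 FPKM with the other KO mice listed at 0, and below for Ano5 at 14.4 against 18.3 FPKM. In WT mice, WT1 stood above for Ftl1 at 263 against 83.5 FPKM and for Snord35a at 24.2 FPKM with the other WT mice listed at 0. WT3 stood above for Plekha4 at 1.88 against 1.24 FPKM, Sphk2 at 11.1 against 8.76 FPKM, Nomo1 at 21.0 against 13.7 FPKM, Hrc at 225 against 159.9 FPKM and Aldh16a1 at 2.40 FPKM with the other WT mice listed at 0. WT3 stood below for Pdcd5 at 176 against 273 FPKM.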

How the results depend on the processing

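No paired analysis was possible because the KO columns match no labelled KO mouse and the numbers pair no mice. The values relative to all genes and the count up to 1 Mb were added after seeing the data. Counts below are of neighbours. Median-ratio scaling gave 10 higher at an unadjusted p under 0.05, 8 higher and 4 lower without overlap, and 3 lower without overlap up to 1 Mb. The median of the neighbours became 0.01 with it. Quantile scaling gave 8 higher at an unadjusted p under 0.05, 7 higher without overlap and 4 lower without overlap up to 1 Mb. A mean FPKM of at least 5 left 51 neighbours, with 2 higher without overlap, a median relative to all genes of -0.15, and -0.18 for those up to 1 Mb at lower coordinates. With no filter the median relative to all genes was -0.076, against 0.02 with it. With values of 0 as missing, 1 was higher at an unadjusted p under 0.05. Without WT1 and KO6, 1 passed (Snord35a, log2 difference 5.03, limma adjusted p = 0.00554) and 7 were higher without overlap. A window of 20 Mb held 234 genes, of which 7 with higher and 19 with lower KO values had an unadjusted p under 0.05, and 10 higher and 15 lower without overlap. Over all tested genes 2.99% were higher and 7.33% lower at that p, and 2.07% higher and 4.68% lower without overlap.

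With each mouse left out in turn, 0 to 1 passed (Snord35a without WT1, when all WT values are listed at 0), unadjusted p under 0.05 went to 2 to 5 with higher and 6 to 10 with lower KO values, 4 to 7 were higher and 9 to 12 lower without overlap, 7 to 10 were lower without overlap up to 1 Mb, and the median ran from -0.19 to -0.001. Relative to all genes the median ran from -0.01 to 0.03, that up to 1 Mb at higher coordinates from -0.28 to -0.057 (without WT3), and that at lower coordinates from -0.09 to -0.03. The log2 difference of 4 named genes turned sign. Sphk2 was 0.11 with median-ratio and 0.074 with quantile scaling, and ran from -0.11 to 0.053 with a mouse left out. Cyth2 was 0.056 and 0.041, and ran from -0.18 to 0.073. Fcgrt ran from -0.29 to 0.049 (without WT1) and Ftl1 from -0.21 (without KO6) to 0.52 (without WT1). The causes were not tested. With 4 mice a group, no exact permutation p can go below 0.0286, and the depth of the libraries in reads is unknown.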

Other observations

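Zfp715, a zinc finger gene at lower coordinates 2.26 Mb from Bcat2, stood at 6.40, 7.68, 6.41 and 5.33 FPKM in KO5 to KO8, against 5.65, 5.47, 3.64 and 5.56 FPKM in WT1 to WT4. KO8 lay inside the WT range and the other 3 KO mice above every WT mouse, and the log2 difference was 0.30 (limma adjusted p = 0.495). Zfp719, Zfp788 and Zfp141 had log2 differences of 0.18, 0.11 and -0.04, each with overlapping groups. Svip, the farthest neighbour at higher coordinates at 6.41 Mb and an inhibitor of endoplasmic reticulum-associated degradation, averaged 16.4 ± 2.92 FPKM in KO and 16.9 ± 2.15 FPKM in WT (SD, n = 4 each).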
